A study of Canis lupus familiaris with 30 samples.

Results

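The genes of the calcium sensing receptor and of calcium channels were followed across 30 canine thyroid carcinomas. The 10 genes were chosen by name, out of 30424 genes counted, with earlier results of these data known. They are CASR, the 5 channel pore genes CACNA1A, CACNA1B, CACNA1C, CACNA1D and CACNA1H, the 3 auxiliary subunit genes CACNB2, CACNA2D1 and CACNA2D2, and the release channel gene RYR2. Total RNA was extracted from 30 primary tumors of the thyroid gland of dogs and sequenced after depletion of ribosomal RNA, with 1 library per tumor. All samples carry the same label, tumor tissue, without a treatment, an age, a genotype or a normal thyroid among them. The study divides thyroid carcinomas (TC) into follicular and medullary tumors (FTC and MTC) by calcitonin expression. The sample labels do not carry that class, so no comparison between classes was made, and each tumor is named as in the labels.

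CASR is a G protein-coupled receptor at the cell surface that senses extracellular calcium. It is best known for restraining parathyroid hormone secretion in the parathyroid gland, and for driving calcitonin release from the C cells of the thyroid, the cells from which medullary carcinoma arises. Voltage-gated calcium channels open when the membrane depolarizes, and let in the calcium that triggers secretion in neurons and endocrine cells and contraction in muscle. The alpha1 subunit forms the pore and names the channel, the beta subunit (CACNB2) helps to bring it to the membrane, and the alpha2delta subunit (CACNA2D1, CACNA2D2) is anchored outside and raises its surface number. RYR2 is the ryanodine receptor of cardiac muscle and brain, and releases calcium from the endoplasmic reticulum.

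The total count of a tumor lay between 12288945 and 45148677, with a median of 25569678, and all 10 genes passed the count filter (at least 10 counts in at least 5 tumors), both over all tumors and in the branch of 25 described next. Levels are given as log2 of the count divided by the size factor of the tumor, plus 1, and a difference of 1 is thus close to a doubling at high counts. They are not corrected for gene length and are compared between tumors, never between genes. TC538 stood apart with the smallest size factor, 0.279, against 1.62 for the largest. TC1088 was low in follicular cell markers, with a mean level of 3.23 over 10 of them (median of all tumors 12.33). The study reports that TC1088 had lost expression of a key thyroid transcription factor. As an outlier, it was left out of the study's differential expression analyses. Its mean level over 8 C cell markers, 2.64, was not unusual (median of all tumors 3.55, lowest 1.56). TC2288 held the parathyroid hormone transcript, PTH, at 25445 counts. In clustering that left out the channel genes and the listed genes, 25 tumors lay on the larger branch and TC1020, TC1473, TC1601, TC1936 and TC2289 on the smaller one. Relations between genes were tested within the 25 tumors of the larger branch only, so that the difference between branches did not enter them. In bulk tissue, fewer cells of a type and less RNA per cell cannot be told apart.

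CASR (ENSCAFG00000011790) was the most uneven of the 10 genes. Its level was 15.48 in TC1020, 14.85 in TC1473, 13.84 in TC1936, 13.65 in TC2289 and 13.37 in TC1601, from 10067 to 47292 counts. The sixth tumor, TC2288, lay 3.99 below the fifth at 9.38, a normalized count 15.9-fold lower. TC1979 followed at 8.88 and TC22 at 6.59, and the median of all tumors was 4.04. At the low end, TC1953 had 1 count (level 0.92), and 4 tumors had 3 counts or fewer, where detection ends at this depth. Thus 5 tumors formed a group of high values that no other tumor reached, and 2 tumors lay between them and the rest. The standard deviation of CASR over all tumors (4.44, n = 30) exceeded that of 99.9% of the genes that passed the count filter.

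**Figure D1:**
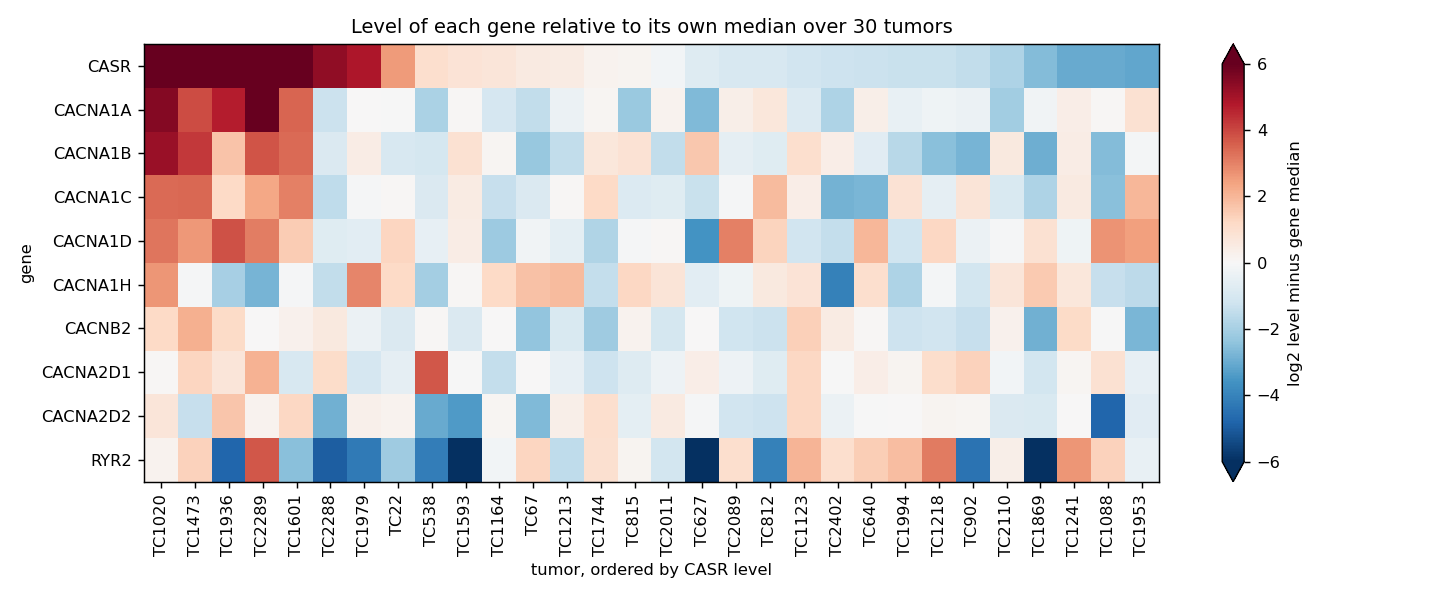
Level of each of the 10 genes (rows) in each of the 30 tumors (columns, ordered by CASR level), as the difference from the median of that gene on the log2 scale, with the color scale ending at differences of 6 in either direction. CASR, CACNA1A and CACNA1B are highest in the same 5 tumors at the left, whereas RYR2 is high and low across the whole order.

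The tumors high in CASR were also those high in most C cell genes, since RET, SCG2, SCG3 and SYT4 had the same 5 highest tumors as CASR. Mean levels over the 8 C cell markers ran from 11.12 to 14.36 in the 5 tumors and from 1.56 to 7.75 in the other 25, so that the groups did not overlap. RET, a receptor tyrosine kinase of C cells, had levels of 13.00 to 14.49 in the 5 tumors and at most 9.38 elsewhere. CALCA, the calcitonin gene, was at 18.70 in TC1020, 17.78 in TC1473, 19.24 in TC1936 and 16.80 in TC1601, but at only 6.94 in TC2289. TC2289 thus carried CASR, RET and SCG2 (17.64, a secretory granule protein) at levels like the other 4 with little CALCA, whereas TC22 carried CALCA at 12.90 with CASR at 6.59. CALCB, a second calcitonin family gene, was lower in TC2289 (8.48) than in TC22 (8.66). GFRA4, a coreceptor of RET, was at 5.74 in TC2289 and 2.21 in TC1473 (4 counts), both below TC22 (5.82). The follicular list in the 5 tumors ran from 4.32 to 10.40. What part the C cell content of a tumor had in its CASR level was not tested.

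TC2288 and TC1979 had almost the same number of CASR counts, 593 and 586, beside different markers. In TC2288, PTH was at 14.80, GCM2, the transcription factor of the parathyroid gland, at 7.65 and GATA3 at 7.37. In TC1979, PTH was at 0.85, with 1 count, GCM2 at 0 counts and GATA3 at 3.88. PTH was next highest in TC1936, at 8.29, one of the 5 tumors with high CASR. GATA3 was highest in TC2289 (7.40), another of these 5, which had 4 PTH counts and 0 GCM2 counts. RET was at 5.65 in TC2288, below the median of the larger branch (6.68), and at 8.51 in TC1979, above it, and both were below the 5 tumors with high CASR. The part of parathyroid tissue in the CASR level of TC2288 was not tested.

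**Figure D2:**
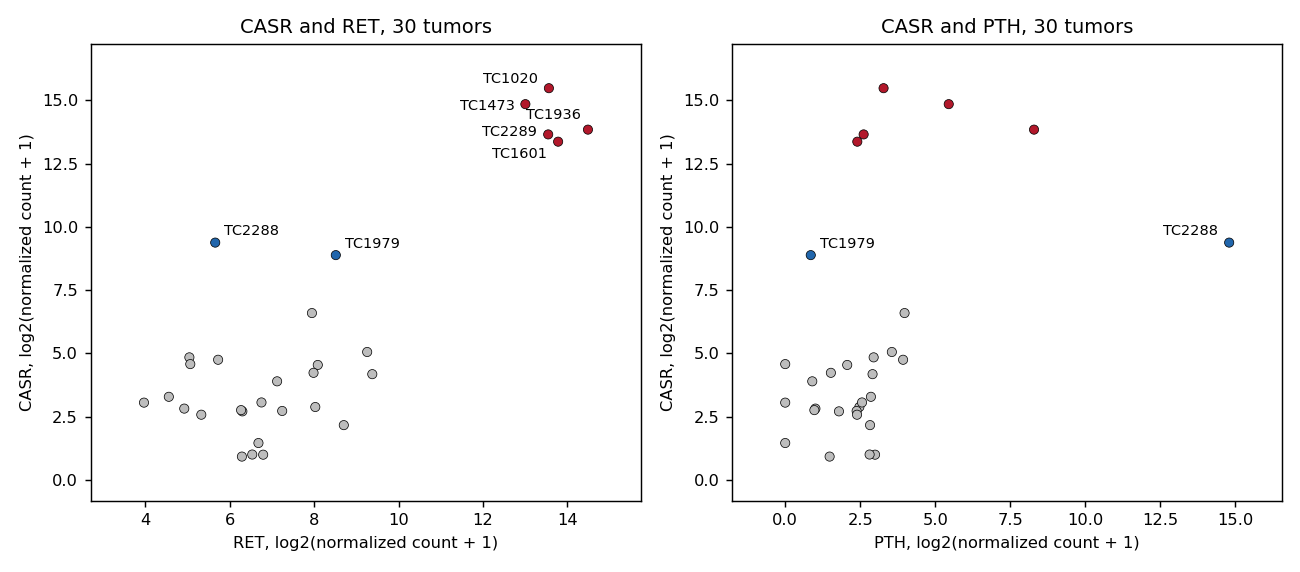
CASR level against RET level (left) and PTH level (right) in 30 tumors, each point 1 tumor, both axes log2(normalized count + 1). The 5 tumors highest in CASR (red) have RET levels of 13.00 or more, and of the 2 tumors in between (blue) only TC2288 is high in PTH.

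CACNA1A (ENSCAFG00000016897) encodes the pore of the P/Q-type channel, which triggers transmitter release at synapses. Its level was 13.48 in TC2289, 11.66 in TC1020, 10.84 in TC1936, 10.03 in TC1473 and 9.64 in TC1601. The next tumor, TC1953, stood at 7.03, the median at 6.13 and the lowest tumor, TC627, at 3.46. The 5 highest tumors were those of CASR in another order, separated from the rest by 2.61. Within the larger branch CACNA1A was rather even, with a standard deviation of 0.99 (n = 25) that exceeded that of 61.4% of genes.

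CACNA1B (ENSCAFG00000019380), the pore of the N-type channel of neurons, was highest in the same 5 tumors. Levels were 11.11 in TC1020, 10.16 in TC1473, 9.69 in TC2289, 9.31 in TC1601 and 7.63 in TC1936. In this gene no gap set them apart, since TC627 followed at 7.56 with the median at 5.93 and TC1869 lowest at 3.00. Sharing the 5 highest tumors with CASR was a property of 337 of 18711 genes (1.8%, CASR included). Among the 10 genes here it held for CACNA1A and CACNA1B, besides CASR itself, which shares them by definition. The 10 genes were chosen with earlier results of these data known, so setting them against that share is not a test.

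CACNA1C and CACNA1D encode the pores of L-type channels, the long-lasting channels of heart, smooth muscle and endocrine cells. CACNA1C (ENSCAFG00000016051) was highest in TC1473 (13.06), TC1020 (13.03), TC1601 (12.64) and TC2289 (11.93), but TC1953 (11.60) and TC812 (11.55) lay above TC1936 (10.82). Its median was 9.63 and its lowest value 6.78, in TC2402. CACNA1D (ENSCAFG00000008525) was highest in TC1936 (12.41), TC1020 (11.84) and TC2289 (11.69), directly followed by TC2089 (11.63) and TC1088 (11.31). TC627 had the lowest CACNA1D level, 5.01, against a median of 8.61. For both genes the 5 tumors with high CASR lay in the upper part of the range and overlapped with the others.

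CACNA1H (ENSCAFG00000019596), the pore of a T-type channel that opens at low voltage, did not follow the order of CASR. TC1979 was highest (10.34), then TC1020 (10.02) and TC1213 (9.31), with the median at 7.39 and TC2402 lowest (3.33, 9 counts). The tumors high in CASR were spread over nearly the whole range, from 10.02 in TC1020 through 7.33 in TC1473, 7.32 in TC1601 and 5.40 in TC1936 to 4.59 in TC2289.

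The auxiliary subunits had smaller standard deviations than the pores over all 30 tumors (1.11 to 1.51 against 1.65 to 2.36), but not within the larger branch, where that of CACNA1A was the smallest (0.99) and that of CACNA2D2 exceeded those of CACNA1B (1.34) and CACNA1C (1.32). CACNB2 (ENSCAFG00000004474) ranged from 5.51 in TC1869 to 10.55 in TC1473, with a median of 8.40. CACNA2D1 (ENSCAFG00000006339) was between 9.06 in TC1164 and 12.55 in TC2289 in all tumors but TC538, where it reached 14.22, and its median was 10.48. CACNA2D2 (ENSCAFG00000010431) had a median of 12.51 and was highest in TC1936 (14.20). A few tumors were far below that median, namely TC67 (9.85), TC2288 (9.61), TC538 (9.47), TC1593 (9.10) and TC1088 (7.76). In the 5 tumors with high CASR, CACNA2D1 ran from 9.50 to 12.55 and CACNA2D2 from 11.14 to 14.20, and both overlapped with the other tumors.

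RYR2 (ENSCAFG00000010034) had the widest spread within the larger branch, with a standard deviation of 3.09 (n = 25) that exceeded that of 99.5% of genes. It was highest in TC2289 (14.20), TC1218 (13.62) and TC1241 (13.12), and lowest in TC1593 (4.15), TC627 (4.00) and TC1869 (3.82). The quartiles of the larger branch were 6.32 and 11.76 around a median of 10.32. Among the 5 tumors with high CASR it ran from 5.72 in TC1936 to 14.20 in TC2289. Its level was only weakly related to the skeletal muscle list (Spearman's rho = -0.11, n = 25) or to the smooth muscle and pericyte list (rho = -0.07), given as descriptions.

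Over the 25 tumors of the larger branch, 6 of the 45 pairs of these genes had an unadjusted two-sided permutation p of Spearman's rho below 0.05, 3 positive and 3 negative. The share of such pairs among genes at large was not computed. Whether 6 of 45 is more than other genes would give was thus not tested. CACNA1A rose with CACNA1D (rho = 0.60, permutation p = 0.00208, Pearson's r = 0.62, permutation p = 0.00075), and r was 0.56 without the 2 tumors farthest from the median CACNA1A level. CACNA1A also rose with CACNA1C (rho = 0.46, permutation p = 0.0237, r = 0.46, permutation p = 0.0206, r without the 2 farthest tumors 0.47). The third positive pair was CACNA1B with CACNB2 (rho = 0.51, permutation p = 0.011, r = 0.49, permutation p = 0.0137, r without the 2 farthest tumors 0.39). CACNA1C and CACNA1D, both L-type pores, had a rho of 0.05 with each other.

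In the opposite direction, CACNA1H fell as CACNA2D1 rose (rho = -0.48, permutation p = 0.0169, r = -0.44, permutation p = 0.0299, r without the 2 farthest tumors -0.43). CACNA1C and CACNB2 had a rho of -0.41 (permutation p = 0.0421), while their r of -0.36 (permutation p = 0.0722) missed the threshold and was -0.22 without the 2 farthest tumors. The permutation p of that rho was 0.0588 without TC1088 and 0.0571 without TC2288. CASR and RYR2 had a rho of -0.42 (permutation p = 0.0392) and an r of -0.39 (permutation p = 0.0485). Pearson's r of this last pair depended on TC2288 and TC1979, since it was -0.23 without them. Its rho was not computed without both of these tumors. With a single tumor left out, the rho of CASR and RYR2 missed the threshold each time. It was -0.38 without TC1088 (permutation p = 0.0718), -0.37 without TC2288 (permutation p = 0.0748) and -0.39 without TC538 (permutation p = 0.0608). In the other 39 pairs the p of rho was above the threshold.

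**Figure D3:**
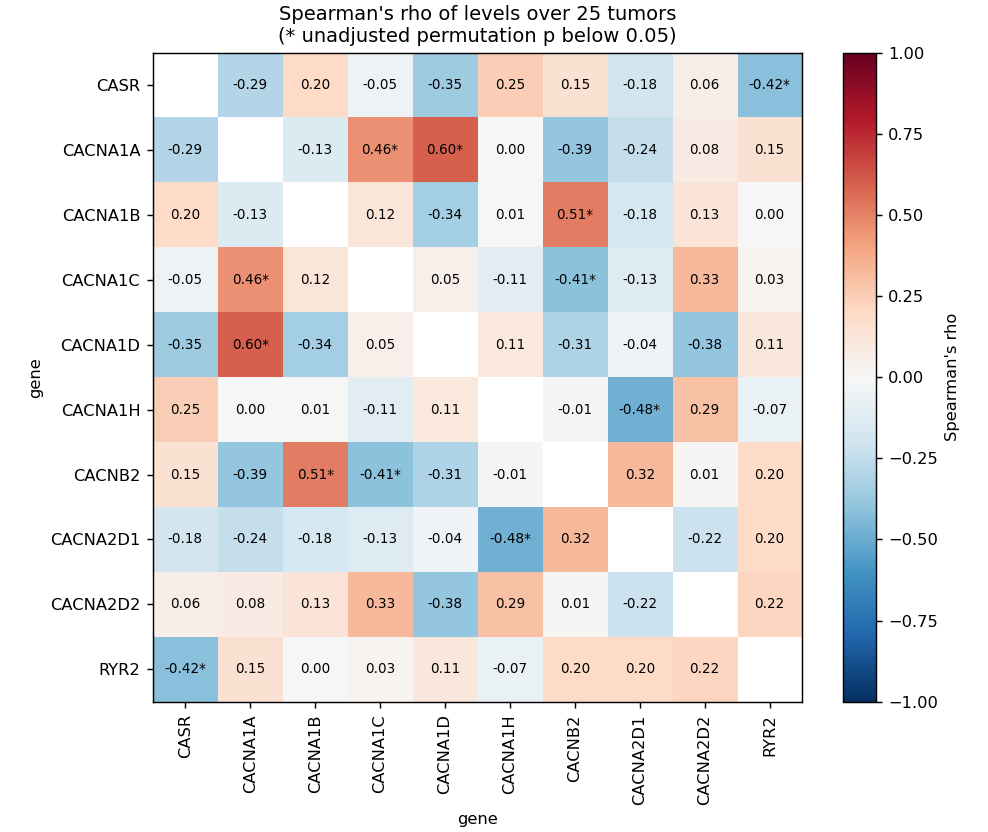
Spearman's rho between the levels of each pair of the 10 genes over the 25 tumors of the larger branch, with an asterisk where the unadjusted permutation p was below 0.05. CACNA1A with CACNA1D has the highest rho (0.60) and CACNA1H with CACNA2D1 the lowest (-0.48).

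Each gene was then used in turn as the index in edgeR's quasi-likelihood test, which asked of the 18105 genes that passed the count filter whether their counts changed with the level of the index gene. Slopes are the log2 change in a gene's count per unit of the index level, adjusted p-values are Benjamini-Hochberg values over all genes tested, and calls are made at 0.05. Of the 90 fits of one of the 10 genes on another, 4 were called (4.44%) and 16 had an unadjusted p below 0.05 (17.8%). Over all genes and the 10 indices these shares were 6.1% and 19.7%, so that the 10 genes were not called on each other more often than genes at large. With CACNA1A as index (1104 of all genes called, 6.1%, but 335 or 1.86% without TC538 and 668 or 3.7% without TC2288), CACNA1D rose with a slope of 1.04 ± 0.25 (SE, edgeR adjusted p = 0.0218). CACNA1C rose with a slope of 0.77 ± 0.20 (SE, edgeR adjusted p = 0.0311, and 0.054 without TC538). The reverse fits missed the threshold, both for CACNA1A on CACNA1D (1.07% of genes called with that index, 0.278% without TC1088, edgeR adjusted p = 0.105) and for CACNA1A on CACNA1C (0.458% called, 0.106% without TC1088, edgeR adjusted p = 0.398).

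Only CACNA1H and CACNA2D1 were called in both directions. Over the 25 tumors, Spearman's rho with total counts was 0.45 for CACNA1H and -0.29 for CACNA2D1 (0.39 and -0.19 without TC538). The part of sequencing depth in their relation was not tested. CACNA2D1 fell with CACNA1H (slope -0.52 ± 0.14 SE, edgeR adjusted p = 0.0385). Genes called with CACNA1H numbered 980 (5.41%), and only 20 (0.111%) without TC538, 255 (1.41%) without TC2288 and 643 (3.57%) without TC1088. CACNA1H fell with CACNA2D1 (slope -0.76 ± 0.25 SE, edgeR adjusted p = 0.0193). TC538, with the fewest reads, was the highest tumor in CACNA2D1 (14.22) and, at 5.34, the second lowest of the 25 in CACNA1H, and both calls depended on it. Without TC538 the slopes were -0.22 (edgeR adjusted p = 0.256) and -0.81 (edgeR adjusted p = 0.0981). Without TC2288, CACNA2D1 on CACNA1H also missed the threshold (edgeR adjusted p = 0.051). Calls with CACNA2D1 as index covered 38.9% of all genes tested, and 9.51% without TC538, so that a call with this index says little about one gene.

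CASR had few genes that changed with it among the tumors of the larger branch. Its own counts there were low in most tumors, with a median level of 3.06 (TC2089, 6 counts). In edgeR, 4 of 18105 genes were called (0.0221%), all rising, against 1107 with an unadjusted p below 0.05 and 64 calls in DESeq2. The 4 genes lie outside the rule for naming genes, as their median normalized count is below 50, and are named after their values were seen. COL6A6 (a collagen VI chain, slope 0.69 ± 0.10 SE) and ENSCAFG00000005832 (no symbol in the table, 1.06 ± 0.17 SE) were both highest in TC2288. CELF3 (a neuronal splicing factor, 0.62 ± 0.09 SE) and CA10 (a carbonic anhydrase-related protein of synapses, 0.84 ± 0.12 SE) were both highest in TC1979. Their edgeR adjusted p-values ran from 0.00206 to 0.00599. Without TC2288 only CELF3 of the 4 was called, and without TC2288 and TC1979 none of the 3 still tested was called by edgeR, while 12 other genes were, out of 1296 with an unadjusted p below 0.05.

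None of the other 9 genes was called with CASR in edgeR (2 with an unadjusted p below 0.05), and DESeq2 called RYR2 alone, as falling (slope -0.80, adjusted p = 0.00219). In edgeR the fit of RYR2 on CASR gave a slope of -0.81 ± 0.27 (SE, adjusted p = 0.448), and that of CASR on RYR2 -0.66 ± 0.14 (SE, adjusted p = 0.0809, and 0.0391 without the count filter). RYR2 as index gave 10 calls (0.0552%). Without TC2288, CASR rose with CACNA1H (slope 0.76 ± 0.18 SE, edgeR adjusted p = 0.0444), a call that was not made with all 25 tumors. CACNB2 as index gave 2 calls in all (0.011%), TRPM6, a channel for magnesium and calcium (slope 1.73), and CNTNAP2, a neurexin-like protein of axons (slope 1.93), named after their values were seen. CACNA1B gave 23 calls (0.127%), none of them among the 10 genes, and edgeR called 4 without TC538, 0 without TC1088 (713 with an unadjusted p below 0.05) and 0 without TC2288 (894).

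CACNA2D2 was related to genes of blood vessels. With CACNA2D2 as index (1608 genes called, 8.88%), all 6 endothelial markers rose, CDH5 (slope 0.52 ± 0.10 SE, edgeR adjusted p = 0.00395), TIE1 (0.59 ± 0.13), CLDN5 (0.59 ± 0.17), VWF (0.37 ± 0.11), PECAM1 (0.37 ± 0.10) and KDR (0.31 ± 0.10). The median slope of this list was 0.45, against -0.01 over all genes tested. Of the 5 smooth muscle and pericyte markers, ACTA2 (0.54 ± 0.14 SE) and TAGLN (0.54 ± 0.13 SE), genes of the contractile apparatus, rose, and neither was called without TC1088 (edgeR adjusted p = 0.0614 for both). Of the 10 follicular markers, DUOX2 (0.97 ± 0.26 SE) and DUOXA2 (0.77 ± 0.20 SE), the enzyme pair that makes hydrogen peroxide for hormone synthesis, rose. Both were still called without TC538, TC2288 or TC1088. Among 5 fibroblast markers PDGFRA, a growth factor receptor, fell (-0.57 ± 0.14 SE), and was not called without TC1088 (slope -0.24, edgeR adjusted p = 0.504).

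The counts of calls depended on single tumors, while the median slope of the endothelial list stayed close. The endothelial list kept 5 of 6 calls without TC2288 (7.03% of all genes called), 3 without TC538 (3.44%) and 2 without TC1088 (5.08%), with median slopes of 0.48, 0.42 and 0.44. CDH5 and TIE1 were called in each of these fits. Spearman's rho between CACNA2D2 and the mean level of the endothelial list was 0.76 (n = 25), and 0.73 to 0.76 without one of the 3 tumors. TC538 (7.58) and TC1088 (8.19) had the lowest endothelial levels of the branch, and both were low in CACNA2D2. With the smooth muscle and pericyte list rho was 0.66, and with total reads 0.44, so tumors with more reads also had more CACNA2D2. Their part in the relation was not tested.

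**Figure D4:**
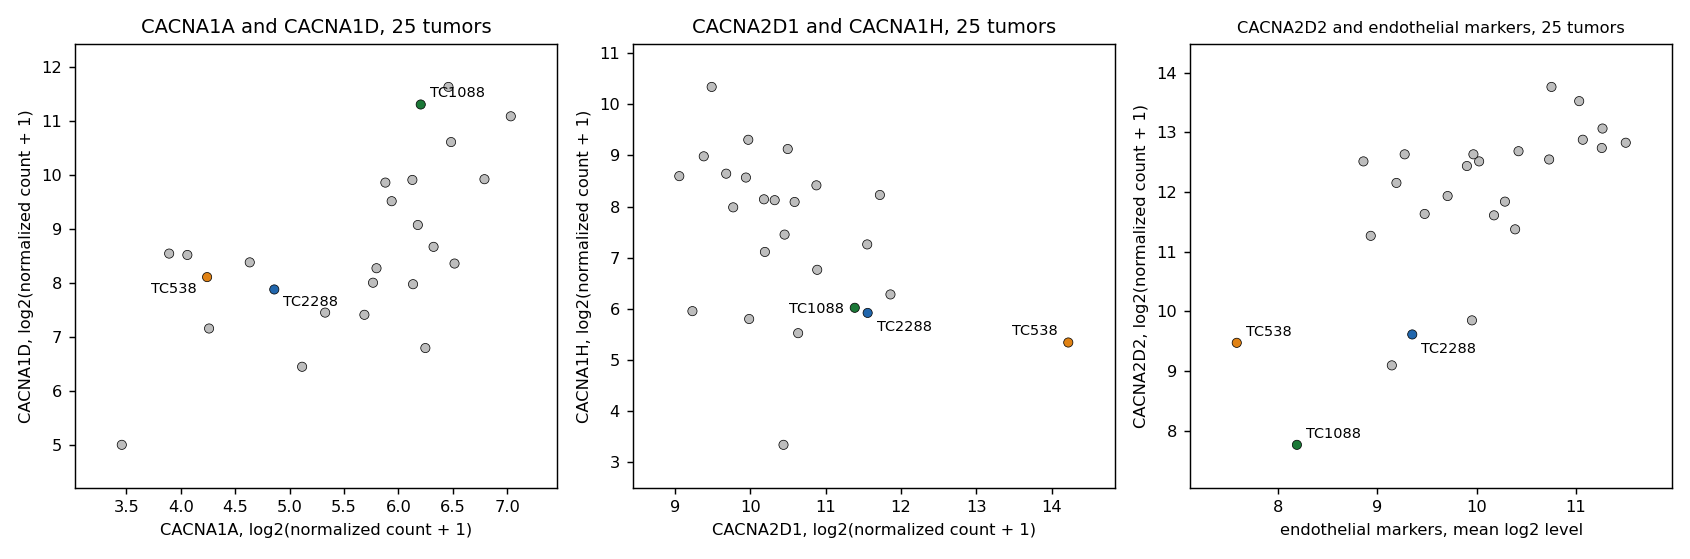
Levels of CACNA1D against CACNA1A (left), CACNA1H against CACNA2D1 (middle) and CACNA2D2 against the mean level of 6 endothelial markers (right) in the 25 tumors of the larger branch, log2 scale, each point 1 tumor. TC538 lies alone at the right of the middle panel, and TC1088 and TC538 at the lower left of the right panel.

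The other genes of calcium handling were read from 6 lists with 56 genes, 53 of them in the table. Over all 30 tumors, some shared their highest tumors with CASR and others shared none. SLC8A2 and SLC8A3, sodium-calcium exchangers, and CALB1, a calcium buffer of the cytosol, shared all 5 highest tumors with CASR, as did 1.8% of the genes that passed the count filter. None of the 5 tumors was shared by 7 of the 15 genes in the table from the CASR signalling and calcium hormone list. The same held for 2 of 12 pumps and exchangers and 2 of 12 auxiliary subunits. It also held for 2 of the 5 other alpha1 genes, 3 of 5 release channels and 2 of 4 store-operated entry genes. The share of all genes with none of these tumors was not computed, so these counts are descriptions. CALB1 ran from 7.95 in TC1020 to 14.28 in TC2289 in the 5 tumors and was at most 6.17 elsewhere. Of the 5 other alpha1 genes, CACNA1F, CACNA1G and CACNA1I shared 4 of 5, where 6.18% of all genes shared at least 4. The auxiliary subunit genes CACNG3 and CACNG7 also shared 4, with 3 counts or fewer in 26 tumors each. CACNA1F reached no more than 23 counts, so its order is uncertain. CACNA1G (T-type) was at 13.04 in TC1020 against a median of 2.79. CACNA1E, the R-type pore, was high in most tumors (median 12.49), and lower in the 5 tumors, from 5.59 in TC1473 to 10.82 in TC1020. TC1088 had the lowest CACNA1E level, 2.00 from 3 counts. None of the 5 release channels or the 4 store-operated entry genes in the table shared more than 2 of these tumors.

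Within the larger branch, 39 of the 56 list genes passed the count filter. With CASR as index edgeR called none of them, against 4 with an unadjusted p below 0.05 and 1 call in DESeq2. With CACNA1A, and with CACNA1D, 1 of the 39 rose (2.56%, against 6.1% and 1.07% of all genes), in both cases VDR, the vitamin D receptor. Its slopes were 0.86 ± 0.22 and 0.60 ± 0.12 (SE, edgeR adjusted p = 0.0261 and 0.00828, the latter 0.0925 without TC1088). With CACNA1H, 2 of the 39 were called (5.13%, against 5.41% of all genes). SLC8A2 rose (0.66 ± 0.12 SE, edgeR adjusted p = 0.0133) and ATP2B1, a plasma membrane calcium pump, fell (-0.42 ± 0.11 SE, edgeR adjusted p = 0.039, lost without TC538 at 0.141 and without TC2288 at 0.0517). With CACNA2D2, RYR3 rose while ITPR2 and VDR fell (7.69% of the 39, against 8.88% of all genes), and none of the 3 was called without TC1088. RYR3 was not called without TC538 either (edgeR adjusted p = 0.139). With CACNA2D1, 3 rose and 7 fell (25.6%, against 38.9% of all genes), and without TC538 it was 1 and 2 (7.69% against 9.51%), with ITPR2, the inositol trisphosphate receptor, still rising (1.00 ± 0.29 SE, edgeR adjusted p = 0.0339). CACNA1B, CACNA1C, CACNB2 and RYR2 gave no edgeR call in the lists, with 2, 3, 8 and 3 genes at an unadjusted p below 0.05.

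The genes most like each of the 10 were taken as the 3 with the highest Spearman's rho over the 25 tumors, among the 10996 named genes whose normalized count had a median of 50 or more. For CASR they were TLL1 (rho = 0.68), H2AC11 (0.65) and PTCH1 (0.59). For CACNA1A they included STXBP2 (0.85) and ACD (0.84), and for CACNA1B ZSWIM5 (0.60), SEMA4F (0.57) and ODAD3 (0.57). CASR and CACNA1B thus had no gene as close as those of CACNA1A. The L-type pores were nearest to ZMYND10 (0.76), KIF9 (0.75) and CTRL (0.74) for CACNA1C, and, among others, to DHODH (0.85) and PKNOX1 (0.77) for CACNA1D. CACNA1H was nearest to TRIM65 (0.86), SOX10 (0.84) and FADS6 (0.84), where SOX10 is also in the Schwann cell list. The mean level of that list, which includes SOX10, had a rho of 0.50 with CACNA1H, 0.47 with CASR and 0.41 with CACNA2D2. Its rho with CACNA1H is thus not separate from that of SOX10. CACNB2 was nearest to BBS7 (0.75), ORC4 (0.72) and CERS6 (0.72). CACNA2D1 was nearest to KMT5B (0.89), ING3 (0.85) and ZNF143 (0.85). CACNA2D2 was nearest to PVR (0.84), FGD5 (0.82) and TBC1D1 (0.81), of which FGD5 is a guanine nucleotide exchange factor of endothelium. RYR2 was nearest to FGL2 (0.76), MARCHF3 (0.69) and C11H5orf24 (0.69). These are descriptions with no test, over tumors that differ in depth and in tissue content.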

How the data were processed

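The authors aligned paired-end reads of 30 ribosomal RNA-depleted libraries to CanFam3.1 and counted them per Ensembl gene, both in STAR, and deposited the raw counts in 1 table, with symbols for 15780 of 30424 genes. Which strand setting was counted is not given in the sources used here, so genes overlapping on the other strand are uncertain. Members and lists were chosen with earlier results of these data known.

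Size factors were medians of ratios over 15611 genes, and levels log2(count / size factor + 1). Tumors were clustered (Ward) on 734 genes with mean level above 2 and variance above 6, 10 genes and lists left out, and the tree cut in 2. Slopes were tested with edgeR 4.0.16 (TMM, quasi-likelihood) in R 4.3.3, over genes reaching 10 counts in 5 or more of the 25 tumors. The fit was also run on simulated counts with CASR as index. Those counts were drawn independently for each gene, so they cannot show how the fits behave with an outlying tumor or with genes that vary together. DESeq2 1.42.0 was an alternative. Correlations used 100000 permutations in Python 3.11.15 (numpy 2.4.6). P-values of the 45 pairs were not adjusted. Each tumor is 1 library, p-values measure the spread between tumors, and count floors (3 counts) cover counting error only. Named genes were the 10 genes, the listed genes, the 3 genes most like each member, and called CASR genes with a median normalized count of at least 50, of which there were 0. CACNA2D4, ORAI3, GNA11 and LMOD1 were not analysed here. Some of the genes most like a member are not reported here.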

Additional observations from a re-analysis of the deposited data

How the results depend on the processing

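The number of genes called with CASR was small and moved with most settings. Against 4 genes in edgeR, it was 64 with DESeq2, 179 without a count filter, 2 at 50 counts or more, 14 over all 30 tumors with the branch as covariate, 8 without TC1088, 12 without the 2 tumors farthest from the median CASR level and, as alternatives chosen after seeing the data, 1 without TC2288 and 5 without TC538. The number of pairs called in both directions was 1, and it was 0 without the count filter, without TC2288 and without TC538. Over all 30 tumors with the branch as covariate, the fits on CACNA1A were not called for CACNA1D (edgeR adjusted p = 0.141) or CACNA1C (0.235). The causes were not tested. All 10 median levels moved by less than 1 SD under TMM scaling and under a pseudocount of 8, and 0 tumors changed branch at that pseudocount, the only alternative run for the branches. The number of pairs with a permutation p of rho below 0.05 was 6 under TMM scaling, under a pseudocount of 8 and without TC538. It was 5 without TC2288 and 4 without TC1088. None of the 6 pairs changed direction, but not all stayed below the threshold. CASR with RYR2 missed it without TC1088, TC2288 or TC538, and CACNA1C with CACNB2 without TC1088 or TC2288. No paired analysis was possible because all tumors form 1 group. Counts of 3 or fewer for CASR in 4 tumors limit what can be said of its lowest levels. CASR reached 10 counts in only 15 of 30 tumors, among them the 5 with high CASR. The order of the other tumors by CASR, and all relations within the larger branch that use it, thus rest largely on low counts.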

Other observations

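CACNA1S and RYR1, a pair of muscle genes, had their highest levels in TC2089, the tumor highest in skeletal muscle markers. CACNA1S, the L-type pore of skeletal muscle, was at 7.11 in TC2089 and 4.82 in TC2402, and its median was 1.82. RYR1, the skeletal muscle ryanodine receptor, was at 8.77 in TC2089, but TC1020 followed and TC2402, at 6.77, was the ninth highest, around a median of 5.29. The mean level of the 6 skeletal muscle markers was 8.20 in TC2089 and 7.71 in TC2402, against a median of 5.19. The part of muscle tissue in these levels was not tested.

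In the calcium hormone genes, PTHLH, which encodes the parathyroid hormone-related protein, ranged from 1.55 in TC1020 to 10.38 in TC2011, with a median of 5.19, and TC22 and TC538 followed TC2011 at 9.42 and 9.27. TRPV6, an epithelial calcium channel, was highest in TC2011 (10.12) and TC22 (8.75) as well, with a median of 4.57 and 3 tumors at 0 counts. CASR was at 3.90 in TC2011, near its median of 4.04, and at 6.59 in TC22, the eighth highest level.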
